A study of Mus musculus with 6 samples.

Results

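The mitochondrial genome was examined gene by gene and by strand in wild-type mouse embryonic stem cells (ESCs) and cortical neurons. Its members were all 37 rows of the deposited count table placed on the mitochondrial chromosome (chromosome M), of 57010 rows in all. The plus strand carried 28 of them, namely 12 mRNA genes, 2 rRNA genes and 14 tRNA genes, which covered 14373 exonic bases. The minus strand carried 9, namely the mRNA gene mt-Nd6 and 8 tRNA genes, which covered 1068 bases. RNA had been sequenced from 6 samples in 2 groups of 3. The first group was a wild-type ESC line, a pluripotent culture kept under standard ESC conditions. The second was wild-type primary cortical neurons, taken from mouse cortices at embryonic day 16.5 and held for 7 days in vitro (DIV7). The labels name no perturbation in either group. The word empty, left unexplained, stands in the names of neuron libraries 2 and 3. Per the labels, the groups served as the pluripotent and the neuronal reference of a study on the gene Rai1. The labels describe no sorting of the neuronal cultures, and they do not say whether replicates came from separate cultures or animals, so p-values measure the spread between these samples, which may be technical.

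Mitochondrial DNA is transcribed from both strands into long precursors, and tRNAs lying between the other genes mark where the precursors are cut. The genes listed on the plus strand encode the ribosomal RNAs and all but 1 of the subunits that the genome contributes to respiratory complexes I, III, IV and V. The minus strand encodes ND6, a complex I subunit, and a set of tRNAs, while the rest of its transcript is antisense to the plus-strand genes and is known to be degraded quickly. Most mitochondrial mRNAs carry short poly(A) tails, so they are captured by oligo-dT priming, the method named in the labels, while the ND6 mRNA is described in human cells as lacking a tail.

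The sequences of the minus-strand tRNA genes are shown because most of the difference between the groups lay on this strand, and because mt-Ty differed from its 3 tRNA neighbours, the nearest tRNA genes on this strand. They are written 5′ to 3′ on the minus strand, from GENCODE M21 transcripts (GRCm38, with the same mitochondrial positions as the count table), with the anticodon in capitals.
mt-Tq, glutamine, chrM:3772-3842: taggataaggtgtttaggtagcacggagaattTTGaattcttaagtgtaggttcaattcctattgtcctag
mt-Ta, alanine, chrM:5018-5086: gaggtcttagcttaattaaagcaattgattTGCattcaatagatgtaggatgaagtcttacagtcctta
mt-Tn, asparagine, chrM:5089-5159: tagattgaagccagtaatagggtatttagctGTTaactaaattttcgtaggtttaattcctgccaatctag
mt-Tc, cysteine, chrM:5192-5257: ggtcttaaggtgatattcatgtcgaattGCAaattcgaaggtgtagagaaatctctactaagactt
mt-Ty, tyrosine, chrM:5260-5326: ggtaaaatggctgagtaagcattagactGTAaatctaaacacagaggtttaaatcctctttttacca
mt-Ts1, serine, chrM:6870-6938: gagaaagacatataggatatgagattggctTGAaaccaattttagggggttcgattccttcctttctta
mt-Te, glutamate, chrM:14071-14139: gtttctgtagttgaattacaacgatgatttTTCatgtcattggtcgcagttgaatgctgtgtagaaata
mt-Tp, proline, chrM:15356-15422: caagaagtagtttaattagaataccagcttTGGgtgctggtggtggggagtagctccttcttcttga

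Opposite-strand neighbours barely touched one another by these coordinates. Only 3 pairs shared bases across strands: mt-Nd5 and mt-Nd6 shared 14, mt-Co1 and mt-Ts1 shared 3, and mt-Ti and mt-Tq shared 3. The tRNA gene mt-Ty had no gene opposite, and 1 base lay between it and the start of mt-Co1. The last 60 bases of the facing pair mt-Nd5 and mt-Nd6 are shown with their shared bases in capitals, each on its own strand.
mt-Nd5, plus strand, chrM:13506-13565: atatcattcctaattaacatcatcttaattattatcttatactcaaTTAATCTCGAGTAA
mt-Nd6, minus strand, chrM:13552-13611: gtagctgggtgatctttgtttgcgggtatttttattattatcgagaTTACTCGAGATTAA

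Libraries held 513425 to 1775055 counts. The ESC libraries had 72138 to 101629 of these on chromosome M, and the neuron libraries had 5254 to 6910. Levels are given as CPM, the count over the library total times 1e6, after trimmed-mean (TMM) scaling, and 3 counts corresponded to 2.26 to 2.90 CPM in ESC and 3.92 to 4.81 CPM in neuron libraries. Whether counting used strand, and with which setting, is not given in the sources used here, so counts listed for a gene and RNA from the strand opposite to it cannot be told apart. The tRNA genes are 59 to 75 bases long, and how a fragment that reached past such a gene was assigned is not given either. The labels' batch field reads ESC for all stem cell and DIV7 for all neuron samples, so batch and group cannot be told apart. Of 8 ESC markers, all had counts in ESC libraries (161 to 270 counts summed per library) and 5, among them Pou5f1 and Nanog, were at 0 in every neuron library (2 to 3 counts summed). The 8 neuronal markers summed to 33 to 50 counts in neuron libraries and 48 to 67 in the larger ESC libraries, with Rbfox3 and Snap25 at 0 in ESC. Among these 8, Tubb3 had only 4, 2 and 1 counts in the neuron libraries against 10, 4 and 8 in ESC. Stmn2 had 8, 1 and 3 against 27, 25 and 16, and Syn1 and Nefl also had more raw counts in ESC. Map2 had 10, 13 and 13 in neuron libraries against 0, 0 and 1, and Dcx 7, 6 and 3 against 1, 0 and 0. The neuronal label therefore rested on few counts and on part of the markers. Of markers of other cells, 5 astrocyte genes summed to 9 to 27 counts in neuron and 3 to 7 in ESC libraries, 5 oligodendrocyte-lineage genes to 13 to 29 and 25 to 30, 5 microglial genes to 81 to 111 and 222 to 288, and 5 fibroblast or vascular genes to 1 to 2 and 2 to 8. Most microglial counts were of Csf1r, with 97, 89 and 75 in neuron and 266, 258 and 204 in ESC libraries. C1qa was at 0 in every library, and P2ry12 had 2, 1 and 1 in neuron libraries and 0 in ESC. Mbp held most oligodendrocyte-lineage counts in ESC (29, 18 and 28, against 1, 2 and 2 in neuron libraries). Pdgfra and Cspg4 had counts in neuron libraries only. These sums thus rested on few genes, and the part of such cells in the results was not tested.

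ESC replicate 2 stood apart from the other ESC libraries over all genes and on chromosome M. Over all genes the chi-square per degree of freedom was 3.96 against ESC replicate 1 and 4.16 against ESC replicate 3. ESC replicates 1 and 3 gave 1.31 there. The measure grows with counts, so values for ESC and neuron pairs, or for mitochondrial and all genes, are not on 1 scale. Over mitochondrial genes the value for ESC replicate 2 was 174 against ESC replicate 1 and 226 against ESC replicate 3. ESC replicates 1 and 3 gave 19.8 and the neuron pairs 1.19 to 3.91. Results that rest on this library are given with and without it.

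The minus-strand genes mt-Ty and mt-Nd6 held most mitochondrial counts in ESCs and were far lower in neurons. mt-Ty encodes the tRNA for tyrosine. Its counts were 46459, 28887 and 37177 in ESC replicates 1 to 3, against 62, 59 and 46 in the neuron replicates. The groups did not overlap, and mt-Ty ranked first, first and second of all genes of the table in the ESC libraries but 1662, 1562 and 1779 in the neuron libraries. The mean fell 398-fold, from 32184 ± 3731 CPM in ESC to 80.9 ± 7.1 CPM in neuron libraries (SD, n = 3), a change past the threshold (log2 fold change −8.63 with SE 0.13, edgeR-adjusted p 6.07e-37). mt-Nd6 had 43341, 27929 and 38689 counts in ESC replicates 1 to 3, against 2060, 2155 and 1443 in the neuron replicates. These groups did not overlap either, and mt-Nd6 fell 11.5-fold, from 31549 ± 4102 to 2738 ± 451 CPM (log2 fold change −3.53 with SE 0.12, edgeR-adjusted p 1.16e-19). Both genes were lower and past the threshold under each alternative run. In bulk samples, fewer cells of a type and less RNA per cell cannot be told apart.

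Within ESC libraries the 2 genes had nearly equal counts, and within neuron libraries they did not. The ratio of mt-Ty to mt-Nd6 counts was 1.07, 1.03 and 0.961 in the ESC replicates. Among neurons it was 0.0301, 0.0274 and 0.0319. The exact two-sided permutation p for this ratio was 0.1, the smallest that 3 against 3 samples can give, and the measure was chosen after its values were seen.

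**Figure D1:**
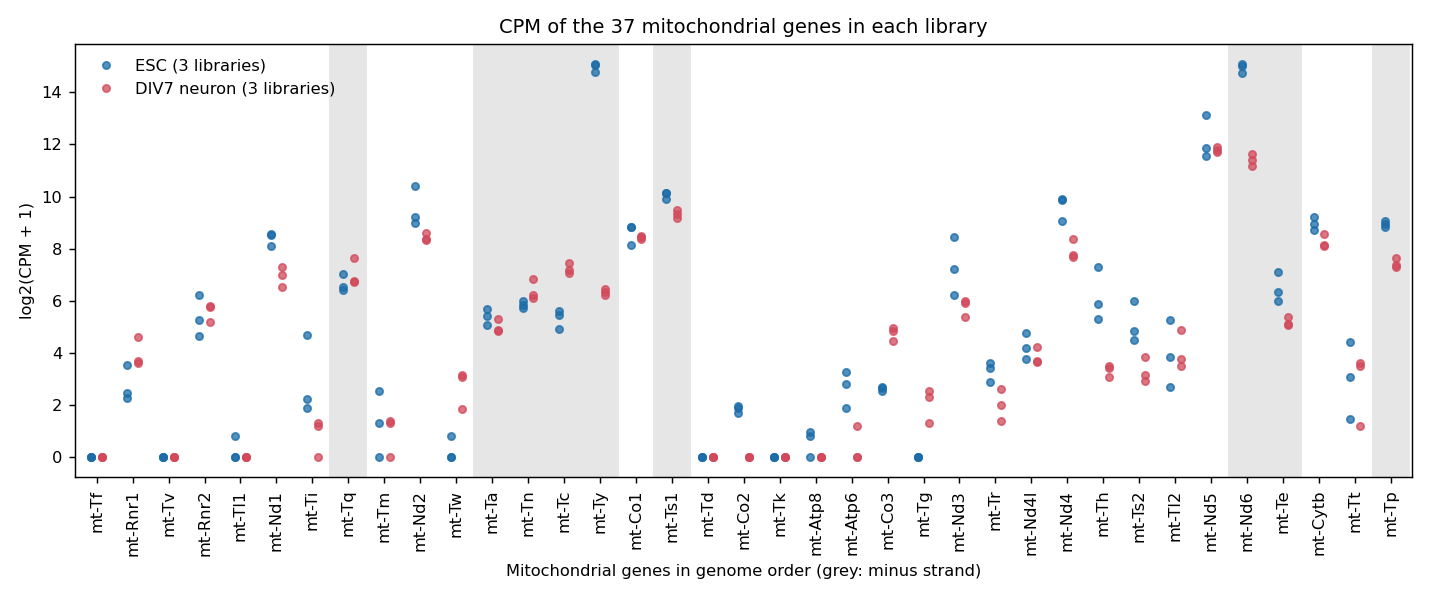
Each point is 1 library's log2(CPM + 1) for 1 mitochondrial gene (blue, ESC; red, DIV7 neuron), with genes in genome order on the x axis and minus-strand genes on grey. In ESC libraries mt-Ty and mt-Nd6 stand above every other gene, while in neuron libraries mt-Nd5 is the highest and mt-Ty lies among its tRNA neighbours.

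The mitochondrial share of all counts was lower in neurons, at 1.12% ± 0.11 against 5.57% ± 0.25 in ESCs (SD, n = 3). The ESC replicates were at 5.73%, 5.27% and 5.70%, and the neuron replicates at 1.10%, 1.24% and 1.02%. The minus strand held 90.8%, 81.5% and 92.6% of mitochondrial counts in the 3 ESC samples, against 44.7%, 45.1% and 42.5% among neurons. Its mean share was 88.3% ± 6.0 in ESC and 44.1% ± 1.4 in neurons. As another measure, counts per kilobase were averaged over the genes of each strand, and the minus-strand mean was divided by the sum of both means. It made up 99.49% in ESC and 94.8% in neurons, a difference of −4.69 percentage points in place of −44.2 (exact permutation p = 0.1). Each gene of a strand weighs the same there, so short tRNA genes weigh more and the unequal gene numbers of the strands matter. It is not a share of counts, and its difference is not on the scale of the shares. The tRNA genes together held 46.1% ± 2.6 in ESC and 15.2% ± 0.58 in neurons, and the rRNA genes held 0.0689% ± 0.0365 and 0.689% ± 0.063. For these 4 shares the groups did not overlap, and each exact two-sided permutation test gave p = 0.1, the smallest value possible here before any adjustment. Wilson 95% intervals of shares of mitochondrial counts in single libraries reached at most 0.362 percentage points to either side in ESC and 1.34 in neuron libraries, covering counting error only.

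Without mt-Ty and mt-Nd6, a choice made once the values were known, the mitochondrial share was 0.702%, 1.17% and 0.596% among ESCs, against 0.765%, 0.847% and 0.735% among neurons. The ESC range then enclosed the neuron range, with ESC replicate 2 the highest. The means were 0.822% ± 0.305 and 0.782% ± 0.058, and the exact permutation p was 1. The minus-strand share of what remained was 19.8% ± 6.4 in ESC and 19.7% ± 0.50 in neurons (exact permutation p = 1), with ESC replicate 2 lowest at 12.8%. The tRNA share turned over without mt-Ty, from 4.93% in ESC to 14.5% in neurons. Among plus-strand genes alone, the rRNA share was 0.675% in ESC and 1.23% in neurons (exact permutation p = 0.3), so the near 10-fold difference in the share of all mitochondrial counts was under 2-fold there and the groups overlapped. The tRNA share among plus-strand genes was 1.87% in ESC and 1.12% in neurons (exact permutation p = 0.1).

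**Figure D2:**
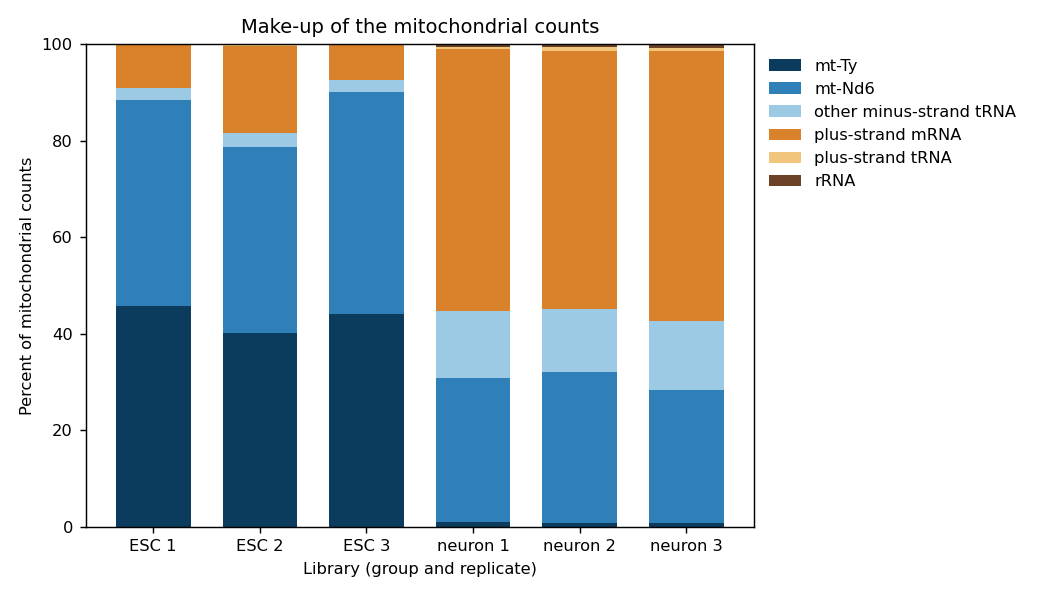
Each bar is 1 library and its segments are the percent of mitochondrial counts held by mt-Ty, mt-Nd6, the other 7 minus-strand tRNA genes, the 12 plus-strand mRNA genes, the 14 plus-strand tRNA genes and the 2 rRNA genes. mt-Ty and mt-Nd6 fill 43.3% and 42.4% of the mean ESC bar, and the plus-strand mRNA genes fill 54.6% of the mean neuron bar.

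mt-Nd6 was also set against mt-Nd5, the complex I gene that it faces. Per kilobase of gene, mt-Nd6 counts were 30.7, 10.6 and 41.3 times those of mt-Nd5 in the ESC replicates. Among neurons the ratio was 2.70, 2.96 and 2.41. All ESC values lay above all neuron values, although ESC replicate 2 was nearer to the neurons than the other ESC libraries were. The log2 ratio was 4.57 ± 1.03 in ESC and 1.42 ± 0.15 in neurons, a difference of −3.15 (exact two-sided permutation p = 0.1). Without ESC replicate 2 the difference was −3.73.

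The other minus-strand tRNA genes moved in both directions. Directions here are those under TMM scaling, and of the genes that it put lower past the threshold, all but mt-Ty, mt-Nd6 and mt-Th were higher when scaled to the mitochondrial total. All 9 minus-strand genes had enough counts to be tested, and 7 passed an edgeR adjusted p of 0.05, 5 lower and 2 higher in neurons, where 85.6% of all 7150 tested genes passed, 38.6% lower and 47.0% higher. A call alone therefore did not set these genes apart. mt-Tc, the cysteine tRNA gene that lies 2 bases from mt-Ty, had 39, 50 and 48 counts in ESC replicates 1 to 3, against 102, 117 and 90 in the smaller neuron replicates. Its groups did not overlap, and it rose 3.73-fold, from 40.4 ± 9.9 to 151 ± 21 CPM (log2 fold change 1.91 with SE 0.20, edgeR-adjusted p 8.17e-11). mt-Tn, for asparagine, had 70, 58 and 69 counts among ESCs, against 57, 76 and 42 among neurons. It rose from 57.1 ± 4.9 to 85.0 ± 24.7 CPM (log2 fold change 0.58 with SE 0.21, edgeR-adjusted p 0.013), but lost the call without ESC replicate 1 (0.44, edgeR adjusted p 0.0933) and without neuron replicate 2 (0.25, edgeR adjusted p 0.306). The call was also lost with no filter (0.42, edgeR adjusted p 0.103) and in limma-voom (0.47, adjusted p 0.0608). mt-Ta, for alanine, did not pass at 41.7 ± 8.9 against 31.7 ± 6.2 CPM (edgeR adjusted p 0.155), and had the opposite sign under total-count scaling. It passed without ESC replicate 2, with a log2 fold change of −0.60 (edgeR adjusted p 0.027).

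mt-Ts1, the serine tRNA gene at the end of mt-Co1, had 1494, 990 and 1255 counts in ESC replicates 1 to 3, against 551, 385 and 405 in the neuron replicates. It fell from 1073 ± 100 to 647 ± 73 CPM (log2 fold change −0.73 with SE 0.11, edgeR-adjusted p 1.26e-07), but under total-count scaling the change was −0.03 and did not pass. mt-Tp, for proline, had 651, 550 and 497 counts in ESC replicates 1 to 3, against 120, 135 and 104 in the neuron replicates. It fell 2.81-fold, from 491 ± 41 to 175 ± 23 CPM (log2 fold change −1.49 with SE 0.13, edgeR-adjusted p 5.59e-13). mt-Te, for glutamate and next to mt-Nd6, had 83, 143 and 88 counts among ESCs, against 25, 27 and 21 among neurons. The groups did not overlap, and it fell from 93.5 ± 39.8 to 35.5 ± 4.1 CPM (log2 fold change −1.38 with SE 0.27, edgeR-adjusted p 3.05e-05). ESC replicate 2 was its highest library. mt-Tq, for glutamine, did not pass at 102 ± 24 against 136 ± 53 CPM (log2 fold change 0.43, edgeR adjusted p 0.0734). It passed under total-count scaling (1.12, edgeR adjusted p 4.86e-05) and with a filter on a mean of 10 counts (0.80, edgeR adjusted p 0.00394). It also passed without ESC replicate 2 (0.57, edgeR adjusted p 0.0254), without neuron replicate 1 (0.58, edgeR adjusted p 0.0171) or without neuron replicate 3 (0.55, edgeR adjusted p 0.0309), and was at −0.00 without neuron replicate 2 (edgeR adjusted p 0.99). Together, the 7 minus-strand tRNA genes other than mt-Ty held 0.142% ± 0.001 of all counts in ESC and 0.153% ± 0.008 in neurons, with no overlap (exact permutation p = 0.1). On the TMM scale the direction was the opposite, at 1898 ± 14 summed CPM in ESC and 1261 ± 73 in neurons.

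Of the 28 plus-strand genes, 15 had enough counts to be tested and 7 passed, 5 lower and 2 higher in neurons, a smaller part than the 85.6% of all tested genes that passed. The 2 higher genes, mt-Rnr1 and mt-Co3, passed the count filter through the neuron libraries alone and so had to differ, which makes this count a description. Among the subunits of complex I, which takes electrons from NADH, mt-Nd5 had the most counts on the plus strand. It had 4969, 9223 and 3288 counts in ESC replicates 1 to 3, against 2683, 2558 and 2103 in the neuron replicates, and in neurons it was the mitochondrial gene with the most counts. Its CPM was 5212 ± 3235 in ESC and 3561 ± 227 in neurons, with overlap between the groups, and it did not pass (log2 fold change −0.55 with SE 0.48, edgeR-adjusted p 0.34). Without ESC replicate 2 the value was 0.02, and total-count scaling also changed its sign. It held 58.4% ± 9.2 of plus-strand counts in ESC and 69.2% ± 1.6 in neurons. For scale, mt-Nd5 had 2858 CPM per kilobase in ESC and 1952 in neurons, against 60788 and 5275 for mt-Nd6.

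mt-Nd1 and mt-Nd4 were the complex I genes past the threshold on the plus strand. mt-Nd1 had 493, 285 and 414 counts in ESC replicates 1 to 3, against 71, 106 and 78 in the neuron replicates. The groups did not overlap, and it fell 2.72-fold, from 340.5 ± 56 to 125 ± 33 CPM (log2 fold change −1.45 with SE 0.16, edgeR-adjusted p 1.20e-09). mt-Nd4 had 1288, 958 and 588 counts in ESC replicates 1 to 3, against 165, 219 and 127 in the neuron replicates, with no overlap, and fell 3.26-fold (log2 fold change −1.71 with SE 0.31, edgeR-adjusted p 0.00219). mt-Nd2 was at 822 ± 464 CPM in ESC and 347 ± 35 in neurons and did not pass (log2 fold change −1.24 with SE 0.47, edgeR-adjusted p 0.0616). mt-Nd3 was at 189 ± 141 and 54.1 ± 11.9 CPM and did not pass either (−1.80, SE 0.75, edgeR adjusted p 0.0803). In both, the ESC libraries lay above all neuron libraries, and the wide ESC spread came with ESC replicate 2, at 1354 CPM against 601 and 510 for mt-Nd2 and 346 against 148 and 73.3 for mt-Nd3. Without that library both passed, at −0.74 for mt-Nd2 (edgeR adjusted p 4.51e-08) and −1.13 for mt-Nd3 (edgeR adjusted p 0.00143). Both passed without ESC replicate 3 as well, at −1.58 and −2.28 (edgeR adjusted p 0.00828 and 3.28e-05), and with all libraries in DESeq2 (adjusted p 0.00831 and 0.00881). With all libraries they also passed in limma-voom (adjusted p 0.0153 and 0.0437) and with replicate number as a block (edgeR adjusted p 5.09e-19 and 1.90e-15). Neither passed in edgeR with total counts, with no filter or with a mean of at least 10 counts. mt-Nd4l had 14 to 27 counts in ESC and 8 to 11 in neuron libraries and did not pass (edgeR adjusted p 0.264).

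Outside complex I, mt-Cytb encodes the mitochondrial subunit of complex III. It had 649, 433 and 650 counts in ESC replicates 1 to 3, against 214, 252 and 170 in the neuron replicates, and was lower in neurons at 309 ± 58 against 499 ± 85 CPM (log2 fold change −0.69 with SE 0.14, edgeR-adjusted p 2.14e-05), but under total-count scaling the change was 0.01. mt-Co1, the catalytic subunit of complex IV, had 611, 290 and 506 counts in ESC replicates 1 to 3, against 276, 237 and 204 in the neuron replicates. It did not pass at 399 ± 103 against 347 ± 18 CPM (log2 fold change −0.21, edgeR adjusted p 0.187), it passed without ESC replicate 2 (−0.47, edgeR adjusted p 1.19e-04), and under total-count scaling it was higher in neurons (0.49, edgeR adjusted p 0.00275). mt-Co3, a complex IV gene with few counts, had 7, 5 and 6 in ESC and 21, 20 and 13 in neuron libraries. It passed the count filter through the neuron libraries alone and so had to differ, and its direction and p-value are not read as a result. Its mean was 5.18 ± 0.31 CPM in ESC and 26.0 ± 4.6 in neurons, 5.02-fold higher (log2 fold change 2.30 with SE 0.39, edgeR-adjusted p 1.28e-06). A near-identical nuclear copy, described below, adds to this uncertainty. The remaining genes of complexes IV and V had too few counts to be tested. mt-Co2 had 3 counts in each ESC library and 0 in each neuron library, mt-Atp8 had at most 1, and mt-Atp6 had 8, 9 and 3 in ESC and 1, 0 and 0 in neuron libraries.

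The rRNA genes had few counts. mt-Rnr1, for the small ribosomal subunit, had 14, 4 and 5 counts in ESC replicates 1 to 3, against 18, 8 and 7 in the neuron replicates. It passed the filter through the neuron libraries alone and was higher there at 15.5 ± 6.9 against 6.31 ± 3.67 CPM (log2 fold change 1.26 with SE 0.44, edgeR-adjusted p 0.0088), but without neuron replicate 1 the change was 0.81 (edgeR adjusted p 0.184), and DESeq2's Wald test gave an adjusted p of 0.0547. mt-Rnr2, for the large subunit, had 97, 39 and 27 counts in ESC replicates 1 to 3, against 27, 37 and 33 in the neuron replicates, and did not pass (log2 fold change 0.04, edgeR adjusted p 0.91). Its sign was not stable when single libraries were left out.

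The plus-strand tRNA genes summed to 167, 328 and 85 counts in the ESC replicates, against 32, 50 and 36 among neurons, all 14 together. Of the 14, 4 were tested and 2 passed. These 2 lie in the run of tRNA genes between mt-Nd4 and mt-Nd5. mt-Th, for histidine, had 78, 162 and 43 counts in ESC replicates 1 to 3, against 8, 5 and 6 in the neuron replicates (log2 fold change −3.16 with SE 0.80, edgeR-adjusted p 0.0105). It lost the call without neuron replicate 1 or neuron replicate 2 (edgeR adjusted p 0.079 and 0.0836), with changes of −3.28 and −3.10, and without ESC replicate 2 the change was −2.47 (edgeR adjusted p 2.18e-09). mt-Ts2, for serine, had 37, 65 and 24 counts in ESC replicates 1 to 3, against 5, 9 and 5 in the neuron replicates (log2 fold change −1.98 with SE 0.43, edgeR-adjusted p 1.27e-04). mt-Tl2, which follows them, did not pass (edgeR adjusted p 0.884), nor did mt-Tt (edgeR adjusted p 0.664). mt-Tf, mt-Tv, mt-Td and mt-Tk were at 0 in all 6 libraries, and 3 counts are the limit that a count of 0 allows in each. mt-Ti had 5, 26 and 3 counts in ESC against at most 1 in neuron libraries, while mt-Tw had at most 1 in ESC and 2, 5 and 5 in neuron libraries. mt-Tg was at 0 in ESC and had 3, 1 and 3 counts in neuron libraries, which is within the floor.

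Over the genome, 24 of 37 genes were tested and 14 passed, 4 of them higher and 10 lower in neurons, against 85.6% called, 47.0% higher and 38.6% lower over all tested genes. Their median, over the 24, was a log2 fold change of −0.62, against 0.37 over all 7150 tested genes. The split of directions rested on the scaling. Total-count scaling raised the median of all genes by 0.69 and gave 7 mitochondrial genes higher and 8 lower, where 65.0% of all calls were higher. Scaling to the mitochondrial total, which asks how each gene moved within the mitochondrial counts and raised the median of all genes by 3.00, gave 19 higher and 2 lower, where 90.6% of all calls were higher. The 2 were mt-Ty (log2 fold change −5.63, edgeR adjusted p 9.14e-32) and mt-Nd6 (−0.52, edgeR adjusted p 3.21e-04). Under TMM, total counts and the mitochondrial total alike, mt-Ty and mt-Nd6 were lower and mt-Tc and mt-Tn higher past the threshold. mt-Co3 and mt-Rnr1 were higher under each as well, but no ESC library reached the filter minimum for either.

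**Figure D3:**
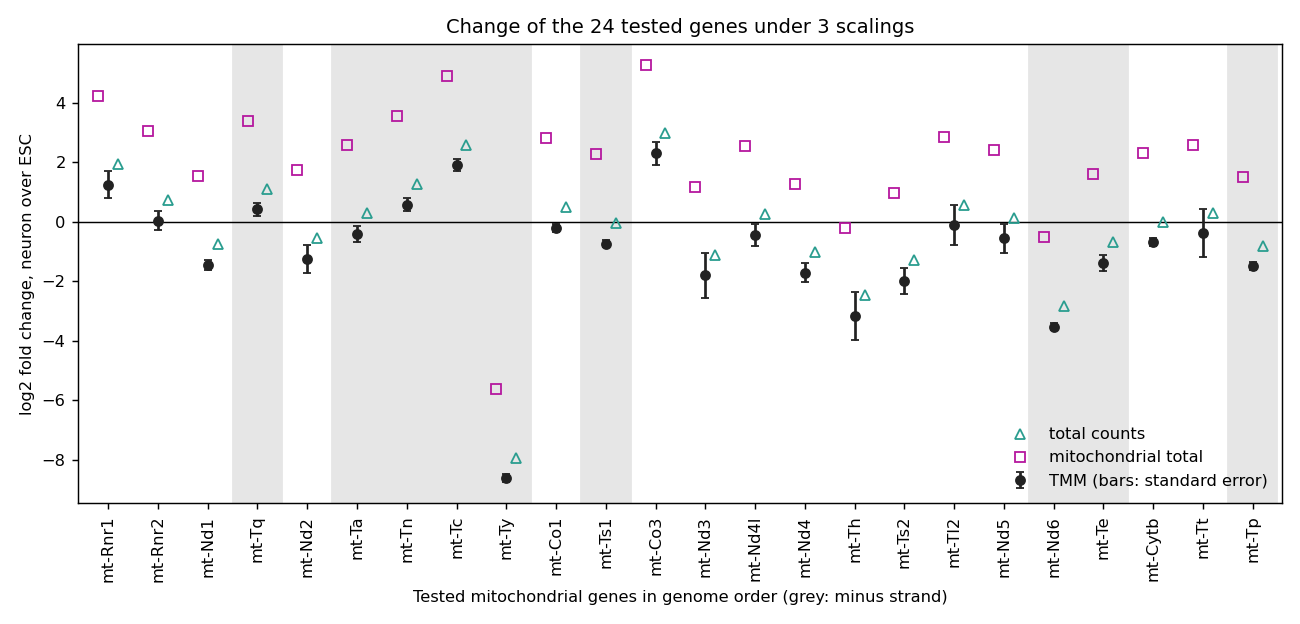
Points give the log2 fold change of neurons over ESCs for the 24 tested mitochondrial genes in genome order, under TMM scaling (black, with the standard error), total counts (green triangles) and the mitochondrial total (purple squares), with minus-strand genes on grey. mt-Ty, at −8.63, −7.94 and −5.63, lies far below all other genes under each scaling.

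ESC replicate 2 differed from the other ESC libraries by strand and by place. Among the 24 genes with a mean of at least 10 ESC counts, which are not all those tested, 11 of 15 plus-strand genes had a higher CPM in ESC replicate 2 than the mean of ESC replicates 1 and 3, against 4 of 9 minus-strand genes. The median ratio was 2.44 on the plus and 0.975 on the minus strand. All 6 plus-strand tRNA genes in this set were higher, from 1.10-fold for mt-Tr to 7.77-fold for mt-Ti. Of the plus-strand mRNA genes, mt-Nd2 (2.44-fold), mt-Nd3 (3.14-fold) and mt-Nd5 (2.66-fold) were higher by more than 2-fold. mt-Nd1, mt-Co1 and mt-Cytb were lower, at ratios of 0.739, 0.611 and 0.778, as were mt-Ty at 0.815 and mt-Nd6 at 0.799. On the minus strand the highest ratio was 1.95, in mt-Te. These values describe 1 library and carry no test.

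**Figure D4:**
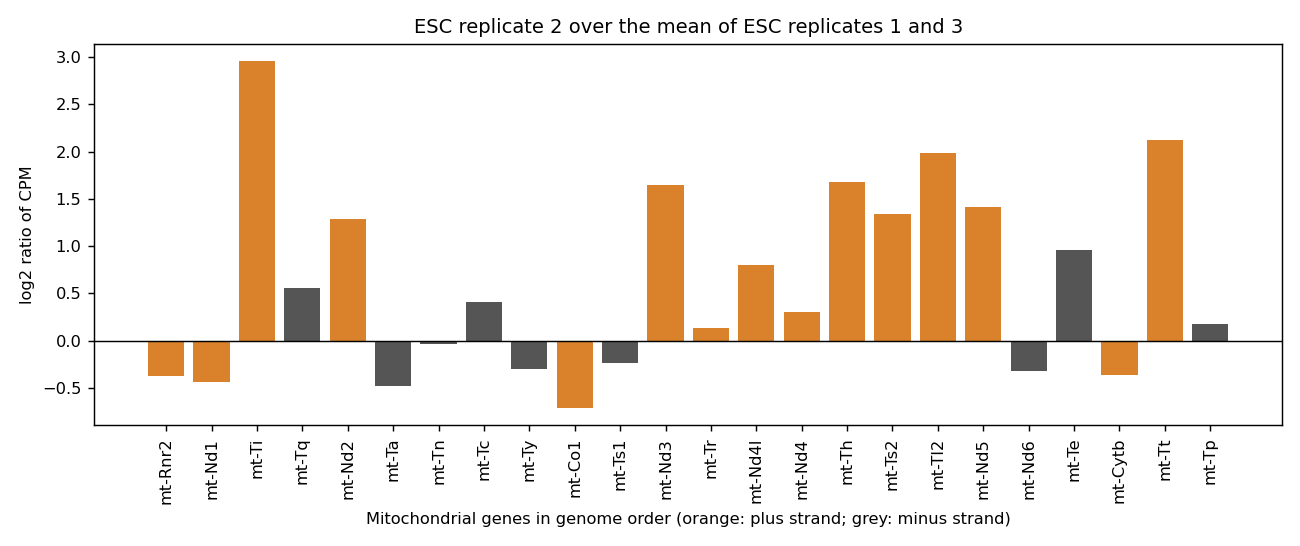
Bars give the log2 ratio of CPM in ESC replicate 2 to the mean of ESC replicates 1 and 3 for the mitochondrial genes with a mean of at least 10 ESC counts, in genome order (orange, plus strand; grey, minus strand). The bars of mt-Nd2, mt-Nd3, mt-Nd5 and the plus-strand tRNA genes mt-Ti, mt-Th, mt-Ts2, mt-Tl2 and mt-Tt exceed 1, while mt-Nd1, mt-Co1, mt-Cytb, mt-Ty and mt-Nd6 lie below 0.

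Copies of mitochondrial DNA in the nuclear genome can share reads with these genes, and how reads matching several places were counted is not given. In a search of the mitochondrial transcripts against all GENCODE M21 transcripts, 11 mitochondrial genes, all of them mRNA genes, matched a pseudogene at 90% identity or more. The closest copies were 7 pseudogenes on the minus strand of chromosome 1, which matched parts of mt-Co1, mt-Co2, mt-Atp6, mt-Co3, mt-Nd3, mt-Nd4l and mt-Nd4 at 99.7% to 100% identity. The values of these 7 genes are therefore uncertain. Among them, mt-Co2 matched Gm28661 over 681 of its 684 bases and mt-Co3 matched Gm28437 over 783 of its 784. Gm28437 had 64, 56 and 22 counts in ESC replicates 1 to 3, against 1, 0 and 1 in the neuron replicates, the opposite direction to mt-Co3. Gm28438, the copy of mt-Nd3, had 282, 806 and 131 counts in ESC replicates 1 to 3, against 2, 1 and 0 in the neuron replicates, and ESC replicate 2 was again the highest library. The other 5 copies had at most 19 counts in any library. mt-Nd6 had only a 93.6% identical copy, Gm11408, with at most 11 counts, and mt-Ty matched no other transcript under these settings.

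The minus-strand genes held more guanine than the plus-strand mRNA genes. Guanine made up 17.9% to 29.9% of the minus-strand tRNA genes and 28.1% of mt-Nd6, and 5.88% to 16.1% of the plus-strand mRNA genes. Plus-strand tRNA genes held 7.14% to 21.3% and overlapped the minus-strand tRNA genes. The longest run of adenines was 2 to 4 bases in minus-strand tRNA genes, 3 in mt-Nd6 and 4 to 8 in plus-strand mRNA genes. In plus-strand tRNA genes it was 3 to 8, again with overlap. Most minus-strand genes are tRNA genes, so the comparison with mRNA genes mixes strand and gene class. mt-Ty had the lowest guanine share of the minus-strand tRNA genes, 17.9%, and runs of at most 4 adenines and 5 thymines. These are descriptions of sequences of 1 genome, with no test.

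Nuclear genes that maintain and express mitochondrial DNA were read from a list of 48, of which 46 matched a row (Prorp did not, nor did Fastkd4, another name of the listed Tbrg4). Most had few counts, with 38 at or under 50 counts in every library. Of 16 tested, 13 passed, where 85.6% of all tested genes did, 8 falling and 5 rising in neurons, and the median log2 fold change was −0.57. The 5 that rose, Elac2, Mterf4, Pus1, Mto1 and Pde12, passed the count filter through the neuron libraries alone and so had to differ, and neither count is read as a result about the list. All 16 tested genes, and so each of the 13, overlapped an exon of a gene on the other strand, so their counts carry the strand limit given above. No listed gene that lacked such an overlap had enough counts to be tested. Some genes that had one, such as Polg2 and Mtpap, were not tested either. How much of the counts came from the gene on the other strand was not tested. Of 8 listed genes of mitochondrial DNA maintenance, 4 were tested and all 4 were called lower, where 38.6% of all tested genes were. This too is a description. Mgme1, an exonuclease of mitochondrial DNA, had 2377, 1687 and 1959 counts in ESC replicates 1 to 3, against 36, 27 and 21 in the neuron replicates (log2 fold change −5.41 with SE 0.14, edgeR-adjusted p 2.34e-29), and shared 206 bases with Snx5. Polg, the mitochondrial DNA polymerase, fell from 829 ± 106 to 20.4 ± 3.0 CPM (−5.34, edgeR adjusted p 2.54e-26) and shared 921 bases with Fanci. Primpol, a primase, fell from 371 ± 5.1 to 10.9 ± 5.6 CPM (−5.10, edgeR adjusted p 3.61e-22) and shared 1069 bases with Cenpu. Twnk, the replicative helicase, fell by 2.73 on the log2 scale.

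Genes acting on mitochondrial RNA are described with the same limits. The 5 that rose passed the count filter through the neuron libraries alone, so their direction and p-values are not read as a result. Elac2, which cuts the 3′ ends of tRNA precursors, had 0, 2 and 3 counts in ESC replicates 1 to 3, against 21, 19 and 23 in the neuron replicates (log2 fold change 4.28 with SE 0.51, edgeR-adjusted p 1.05e-09). Mterf4, which acts in assembly of the mitochondrial ribosome, rose from 8.16 ± 1.63 to 102 ± 25 CPM (3.63, edgeR adjusted p 2.29e-14) and shared 1855 bases with Sned1, which also had more counts in neurons. Pus1, a pseudouridine synthase that modifies tRNAs, rose from 7.17 ± 3.51 to 40.9 ± 5.7 CPM (2.49, edgeR adjusted p 3.35e-08). Mto1, a tRNA modification enzyme, and Pde12 also rose, by 2.11 and 1.58 on the log2 scale. Slirp, a partner of Lrpprc in stabilising mitochondrial mRNAs, fell from 2442 ± 144 to 402 ± 5.4 CPM (−2.60, edgeR adjusted p 9.73e-24), while Trnt1, Fastk and Mrm1 fell by 0.49, 0.82 and 0.93 on that scale. Under total-count scaling 10 of the 16 passed, 5 higher and 5 lower. Polrmt, Tfam and Lrpprc, the polymerase, the packaging factor and the mRNA-binding partner, had at most 17 counts in any library and were not tested.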

How the data were processed

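Gene counts were taken from 3 ESC and 3 DIV7 neuron libraries. The authors deposited raw whole-number counts per gene beside each gene's annotation; per the file headers they come from STAR alignment files, and the submitters' processing notes name cutadapt, STAR, RSEM and GRCm39 (mm39) with no role or order. Counting tool, strand setting and treatment of multiple matches are not given in the sources used here. Columns were matched to samples by library name, and 0 were left unmapped. Symbols came from GENCODE M21 by identifier (52029 of 57010); all 37 mitochondrial genes have the same position and strand there.

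Counts were filtered with filterByExpr (minimum 10), TMM-scaled and compared with edgeR's quasi-likelihood test on all 6 samples without covariate, with Benjamini-Hochberg adjustment over 7150 genes and a threshold of 0.05. The standard error is the log2 fold change over the root of F and is approximate. Single measures were compared by exact two-sided permutation tests; ratios used a pseudocount of 0.5. On simulated counts (7150 genes, 200 changed 4-fold) the edgeR test recovered 97.3% of the changed set, with 4.32% false calls. In the data 85.6% of the 7150 genes passed, and TMM factors were 0.77 to 0.78 in ESC and 1.28 to 1.30 in neuron libraries. A case with so many genes changed was not tested, so these rates are not error rates of the calls given here. Alternatives were other scalings, filters and tools, a replicate block on all 6 samples and, run separately, leaving out each replicate. Leaving out mt-Ty alone or with mt-Nd6 was added after the data were seen. Copies were searched with blastn 2.17.0 (90% identity, 50 bases). Every mitochondrial gene was named, with the machinery genes that passed. The members and lists were chosen with earlier results of these data known. The software was scipy 1.17.1 under Python 3.11.15, bedtools 2.31.1, and in R 4.3.3 DESeq2 1.42.0, limma 3.58.1 and edgeR 4.0.16.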

Additional observations from a re-analysis of the deposited data

How the results depend on the processing

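All alternatives gave 372 further values for single mitochondrial genes: 304 kept direction and side of the threshold, 10 kept the direction and lost the call, 22 gained it and 36 changed sign. mt-Ty stayed between −8.79 and −5.63, and mt-Nd6 stayed lower throughout. Scaling to the mitochondrial total, a denominator that holds mt-Ty and mt-Nd6, turned 15 genes positive: mt-Nd1 (1.55), mt-Nd2 (1.74), mt-Nd3 (1.17), mt-Nd4 (1.28), mt-Nd4l (2.55), mt-Nd5 (2.43), mt-Cytb (2.31), mt-Co1 (2.81), mt-Ta (2.60), mt-Ts1 (2.30), mt-Te (1.60), mt-Tp (1.51), mt-Ts2 (0.98), mt-Tl2 (2.85) and mt-Tt (2.59). Total counts turned mt-Ta (0.29), mt-Co1 (0.49), mt-Nd4l (0.25), mt-Tl2 (0.58), mt-Nd5 (0.14), mt-Cytb (0.00503) and mt-Tt (0.30) positive. A mean of at least 10 counts turned mt-Co1 (0.16) and mt-Tl2 (0.25), limma-voom mt-Tl2 (0.44) and mt-Tt (0.27), and no filter mt-Rnr2 (−0.11), and the cause was not tested. Leaving out single replicates moved mt-Rnr2 between −0.36 and 0.53, mt-Tq between −0.00312 and 0.58, mt-Tl2 between −0.73 and 0.17, mt-Nd5 between −0.92 and 0.0193 and mt-Tt between −0.80 and 0.17.

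Without mt-Ty in the table, which by construction lowers the ESC tRNA count, the tRNA share was 9.52 percentage points higher in neurons. Left-out replicates kept the direction of the differences of neurons minus ESCs: −4.59 to −4.36 points for the mitochondrial share, −47.6 to −42.0 for the minus strand, −32.3 to −29.8 for tRNA genes, 0.584 to 0.640 for rRNA genes and −3.73 to −2.75 for the log2 ratio of mt-Nd6 to mt-Nd5. With 2 against 3 samples no p below 0.2 is possible. The mitochondrial genes called numbered 14, and 12 to 18 without single replicates, 20 with no filter, 21 scaled to the mitochondrial total, 15 with DESeq2, 15 with limma-voom and 12 without mt-Ty and mt-Nd6. With no filter, 23 machinery genes passed in place of 13, as more were tested. Same-numbered samples did not deviate together (correlations 0.0185, 0.00391 and −0.0218); with the replicate block 17 mitochondrial genes passed, 5 higher and 12 lower, and mt-Nd6 stood at −3.53. Depth limited the neuron libraries, with 5254 to 6910 mitochondrial counts, and 8 genes had at most 3 counts everywhere.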
